A study of Oryza sativa with 36 samples.

Results

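The results concern 10 genes of the rice small RNA silencing pathway: the Dicer-like genes OsDCL1 (LOC_Os03g02970), OsDCL3a (LOC_Os01g68120) and OsDCL4 (LOC_Os04g43050), the RNA-dependent RNA polymerase genes OsRDR2 (LOC_Os04g39160) and OsRDR6 (LOC_Os01g34350), and 5 Argonaute genes. The Argonautes are OsAGO1a (LOC_Os02g45070), OsAGO1b (LOC_Os04g47870), OsAGO1c (LOC_Os02g58490), OsAGO4a (LOC_Os01g16870) and OsAGO4b (LOC_Os04g06770). The 10 genes, of the 55801 in the tables, were taken by identifier and not by a rule on measured values. Earlier results of these data were known when they were chosen. The plants were seedlings of rice (Oryza sativa) cultivar Nipponbare, raised in hydroponic solution and harvested at an age of 15 days. The genotypes numbered 3: wild type, rice homozygous for the transgene FTO, an animal enzyme that removes the methyl group from N6-methyladenosine (m6A) in RNA, and rice homozygous for FTOmut, a form of that enzyme without demethylase activity. Shoots and roots were collected separately, giving 6 groups with 2 libraries each of RNA-seq after removal of ribosomal RNA, and 2 m6A-seq experiments each on poly(A) RNA. The sources used here do not give the promoter of the transgenes, the number of independent lines or whether replicates were separate plants, so p-values measure only the spread between these libraries. The FTO transcript itself was not analysed here.

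Small RNA silencing in plants starts from double-stranded RNA. RNA-dependent RNA polymerases make the second strand, Dicer-like enzymes cut it into small RNAs, and Argonaute proteins load those small RNAs and act on matching transcripts or loci. In Arabidopsis, DCL1 makes microRNAs that act mainly through AGO1, RDR6 and DCL4 make trans-acting small interfering RNAs, and RDR2, DCL3 and AGO4 belong to the pathway that directs DNA methylation. OsRDR6 is also known as SHL2, a gene needed for shoot meristem formation in rice embryos. In messenger RNA, m6A is typically found near the stop codon and in the last part of the transcript.

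The RNA-seq libraries held 12970274 to 17875977 gene counts in shoot and 13409952 to 17083048 in root, and the 10 genes together took 2611 to 6058 counts per shoot library and 6440 to 8773 per root library. Single genes had 23 to 1180 counts in a shoot library and 33 to 2318 in a root library, and 0 of these 120 values carried a fraction from a read shared between places. Libraries stood apart in several ways. Genes reaching 10 counts numbered 36486 in shoot replicate 2 of FTOmut and 46166 in root replicate 2, against no more than 22359 and 30053 in the other libraries of each tissue. A pair of loci on chromosome 9 took 63.6% to 64.8% of the counts in FTO shoot and at most 34.4% in the other shoot libraries. In root they took 22.0% to 23.2% in FTO and 1.22% to 4.30% in the others. On a common scaling of all 12 libraries, the summed level of 6 green tissue markers was 331 to 541 RPKM (counts per kb of gene and per size of library) in FTOmut root against 63.7 to 83.1 in wild-type and FTO root, with 0 of the 6 markers at 0 in any root library. In shoot that sum was 2014 in wild-type replicate 2 and 7011 to 11752 in the others. The summed level of 7 root markers was 74.0 to 79.7 RPKM in FTO root and 150 to 277 in the root of the other genotypes, and 4.04 to 13.5 in shoot.

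In root, OsAGO1a and OsAGO1b had the highest medians. By median RPKM over the 6 root libraries, scaled within that tissue, the order was OsAGO1a (32.9), OsAGO1b (28.8), OsAGO4a (17.7), OsAGO4b (15.2), OsDCL4 (10.8), OsAGO1c (5.60), OsDCL3a (4.92), OsDCL1 (3.66), OsRDR6 (2.46) and OsRDR2 (1.71). The library values of all 9 neighbouring pairs in that order overlapped. In shoot the order was OsAGO4a (18.6), OsAGO1b (12.6), OsAGO1a (11.5), OsAGO4b (6.41), OsAGO1c (5.37), OsDCL4 (4.78), OsDCL1 (2.41), OsDCL3a (1.25), OsRDR6 (1.11) and OsRDR2 (1.02). There 8 of 9 neighbouring pairs overlapped, and OsDCL4 lay above OsDCL1 in every library. By these medians the polymerases were the lowest of the 10 in both tissues, and the Argonautes OsAGO1a, OsAGO1b and OsAGO4a the highest. Within single genotypes the order differed in places. In wild-type root the mean of OsRDR6 (3.82) was above that of OsDCL1 (3.22). In FTO shoot the mean of OsDCL3a (1.03) was below that of OsRDR6 (1.10). In FTOmut root OsDCL4 (12.2) and OsAGO4b (10.7) had higher means than OsAGO4a (10.5).

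In FTO root, the 2 RNA-dependent RNA polymerase transcripts among the 10 genes were lower than in wild type. This does not extend to all rice polymerases. OsRDR4, outside the 10 and named after its values were seen, had means of 2.01 RPKM in wild-type root and 2.43 in FTO root. No Dicer-like or Argonaute transcript of the 10 passed the main test, but OsDCL3a passed with another scaling. OsRDR2, the polymerase of the DNA methylation pathway in Arabidopsis, was at 1.73 and 1.72 RPKM in wild-type root, 1.09 and 0.632 in FTO root and 2.26 and 1.69 in FTOmut root. Both FTO libraries lay below all libraries of the other genotypes. OsRDR6, the polymerase of trans-acting small RNAs, was at 3.96 and 3.68 RPKM in wild-type root, 2.02 and 1.92 in FTO root and 2.73 and 2.19 in FTOmut root. The 3 genotypes did not overlap for this gene, with wild type highest and FTO lowest. In edgeR's quasi-likelihood test over the 6 root libraries, with p adjusted by Benjamini-Hochberg over all 32467 genes tested, the log2 fold change of FTO against wild type was -1.005 ± 0.285 (SE) for OsRDR2 (adjusted p = 0.0143). For OsRDR6 it was -0.96 ± 0.212 (adjusted p = 0.00306). In bulk tissue, fewer cells of a type and less RNA per cell cannot be told apart. Of the 10 genes, 2 were called lower and 0 higher, where 35.1% of all genes tested were called, 18.8% lower and 16.3% higher. The median log2 fold change of the 10 genes was -0.29 against 0.19 for all genes tested. Of the 8 others, OsDCL1, which makes microRNAs, had the largest positive value, 0.44 ± 0.186 (adjusted p = 0.0785), and OsDCL3a the largest negative one, -0.49 ± 0.199 (adjusted p = 0.0674). With RLE factors in place of TMM, OsDCL3a was at -0.60 and was called (edgeR adjusted p = 0.0404). Leaving out 1 library at a time, OsDCL3a ran from -0.77 to -0.35, OsDCL4 from -0.72 to -0.36 and OsAGO1c from -1.05 to -0.34. Each of them was called in some of those fits.

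These calls rest on few libraries. Fits without 1 library also filtered the genes anew, and tested 32695 to 46255 genes in place of 32467. The part of the library and that of the filter cannot be told apart there. Without FTO replicate 2 in root the OsRDR2 value was -0.72 (adjusted p = 0.289), and no gene of the 10 was called. Without FTOmut replicate 1, and likewise without its replicate 2, 5 of the 10 were called, where 41.6% and 55.8% of all genes were. Without FTO replicate 1 the OsRDR6 value was -1.04 (adjusted p = 0.11), and without replicate 2 it was -0.98 (adjusted p = 0.123). So 1 of the 10 was called without FTO replicate 1. When libraries were scaled by their ERCC spike-in RNA in place of TMM, the median of all genes rose from 0.19 to 0.69. OsRDR2 then came to -0.50 (adjusted p = 0.189) and OsRDR6 to -0.45 (adjusted p = 0.117), while OsDCL1 at 0.95, OsAGO1a at 0.69 and OsAGO1b at 0.59 were called higher in FTO. Relative to the median of all genes, OsRDR2 was at -1.19 under both scalings and OsRDR6 at -1.15 under both. A change of scaling moves all genes by nearly the same amount, so that agreement was fixed in advance and adds no support. Root markers were lower in FTO root, as given above, with 5 of 7 called lower; their part in these values was not tested.

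**Figure D1:**
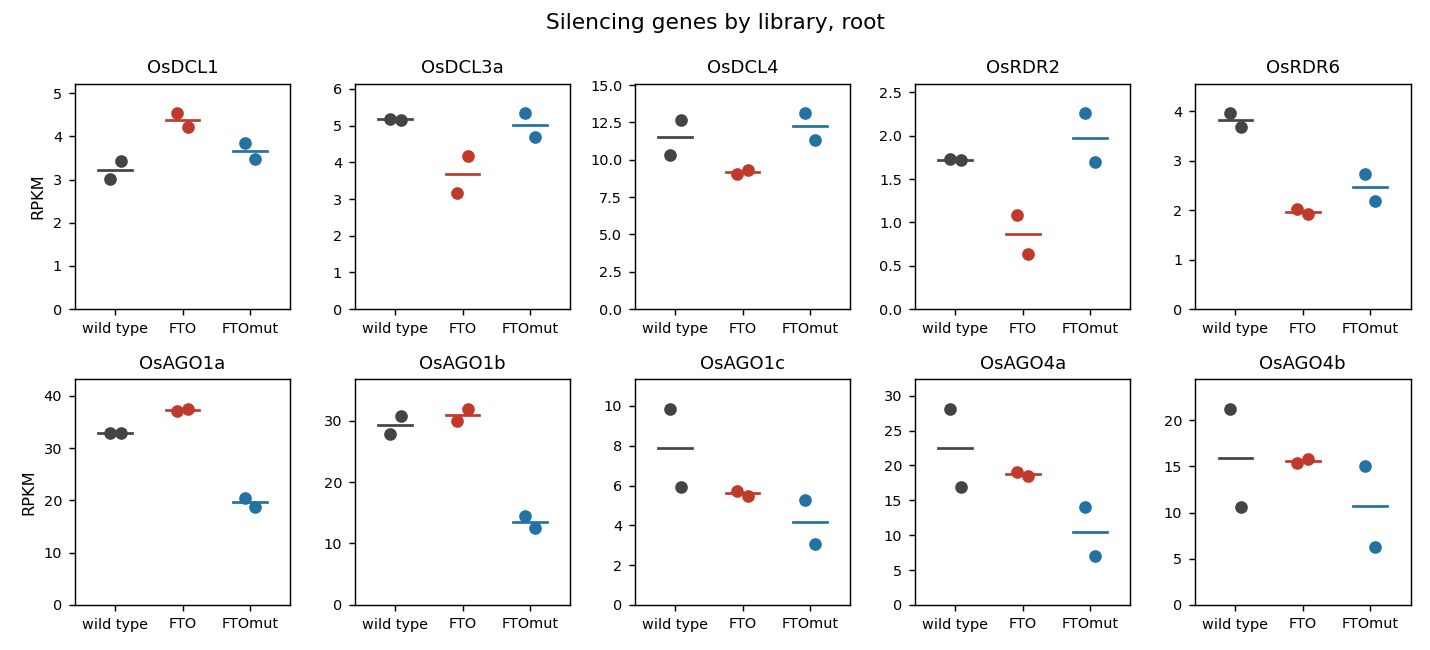
Level of each of the 10 genes in root, in RPKM scaled within the tissue (y axis from 0, a scale of its own per gene), by genotype. Points are the 2 libraries of a genotype and bars their mean; OsRDR2 and OsRDR6 are lowest in FTO, and OsAGO1a and OsAGO1b are lowest in FTOmut.

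In FTOmut root the 3 AGO1 genes of the 10, OsAGO4a and OsRDR6 were lower than in wild type. Of these, OsRDR6 was also called lower in FTO root. OsAGO1d, an AGO1 gene outside the 10, had means of 5.71 RPKM in wild-type root and 5.72 in FTOmut root. OsAGO1b, an Argonaute of the microRNA class, was at 27.8 and 30.8 RPKM in wild-type root, 29.9 and 31.9 in FTO root, and 14.5 and 12.6 in FTOmut root. OsAGO1a, of the same class, was at 32.9 in both wild-type libraries, at 37.1 and 37.5 in those of FTO, and at 20.5 and 18.8 in those of FTOmut. For both genes the FTOmut libraries lay below the other 4. For OsAGO1c the wild-type libraries had 9.86 and 5.93, the FTO libraries 5.74 and 5.47, and those of FTOmut 5.28 and 3.05. OsAGO4a, an Argonaute of the DNA methylation class, had 28.1 and 16.9 in the wild-type libraries, 19.1 and 18.5 in those of FTO, and 14.0 and 7.02 in those of FTOmut. For OsAGO1c and OsAGO4a the libraries within wild type and within FTOmut were widely spread.

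Against wild type the log2 fold changes in FTOmut root were -1.11 ± 0.177 (SE) for OsAGO1b (edgeR adjusted p = 0.000168), -0.74 ± 0.169 for OsAGO1a (adjusted p = 0.0026) and -0.93 ± 0.288 for OsAGO1c (adjusted p = 0.0175). OsAGO4a was at -1.10 ± 0.352 (adjusted p = 0.0276) and OsRDR6 at -0.63 ± 0.205 (adjusted p = 0.0171). In all 5 genes both FTOmut libraries lay below both wild-type libraries, as they did for 39% of all genes tested. So 5 of 10 were called lower and 0 higher, where 61.6% of all genes were called, 29.1% lower and 32.5% higher. The median was -0.60 for the 10 genes and 0.06 for all genes. OsAGO4b, the second Argonaute of the DNA methylation class, had -0.57 ± 0.528 (adjusted p = 0.391), with overlapping libraries. OsDCL1 at 0.18, OsDCL3a at -0.04, OsDCL4 at 0.09 and OsRDR2 at 0.19 did not pass the test.

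The call for OsAGO1b held under all 13 alternatives run, with an adjusted p of at most 0.0102. The call for OsAGO1a was lost in 1 of them, without wild-type replicate 2 (-0.97, adjusted p = 0.056), and that for OsAGO1c in 2, among them without wild-type replicate 1 (-0.74, adjusted p = 0.133). OsAGO4a was lost in 3, among them without wild-type replicate 1 (-0.90, adjusted p = 0.0703). OsRDR6 was lost in 6, among them without either wild-type replicate (adjusted p = 0.0868 and 0.0576) and without FTOmut replicate 2 (-0.45, adjusted p = 0.126). Without wild-type replicate 1, 2 of the 10 genes were called. Leaving out FTOmut replicate 1 gave -2.05 for OsAGO4a, -1.74 for OsAGO1c, -1.17 for OsRDR6 and -1.18 for OsAGO1a, and leaving out FTOmut replicate 2 gave -0.65 for OsAGO4a and -0.55 for OsAGO1c. The green tissue markers were higher in FTOmut root, with 5 of 6 called; their part in these differences was not tested.

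Set against each other, the roots of the transgenic genotypes differed in OsAGO1a, OsAGO1b and OsRDR2. The log2 fold change of FTO against FTOmut was 1.19 ± 0.178 (SE) for OsAGO1b (edgeR adjusted p = 0.000293) and 0.92 ± 0.17 for OsAGO1a (adjusted p = 0.00144). For OsRDR2 it was -1.20 ± 0.281 (adjusted p = 0.00735). So 2 of 10 were called higher and 1 lower, where 20.3% of all genes were called, 14.8% higher and 5.47% lower. The median of the 10 genes was 0.35 and that of all genes -0.11. All 10 had non-overlapping libraries in this comparison, 6 with FTO above and 4 with FTO below, where 32.3% and 26.4% of all genes did so. The OsAGO1b call held under all 13 alternatives. That of OsAGO1a was lost without any 1 of the 4 wild-type and FTO libraries, at adjusted p of 0.0602 to 0.0762. That of OsRDR2 was lost without FTO replicate 2 (-0.66, adjusted p = 0.587), without FTOmut replicate 1 (-0.66, adjusted p = 0.0874) and with ERCC scaling (-0.69, adjusted p = 0.0974). Without FTO replicate 2, 1 of the 10 genes was called, and without FTOmut replicate 1 or replicate 2 there were 6 and 5. These 3 comparisons share libraries and are given side by side, not as independent results.

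**Figure D2:**
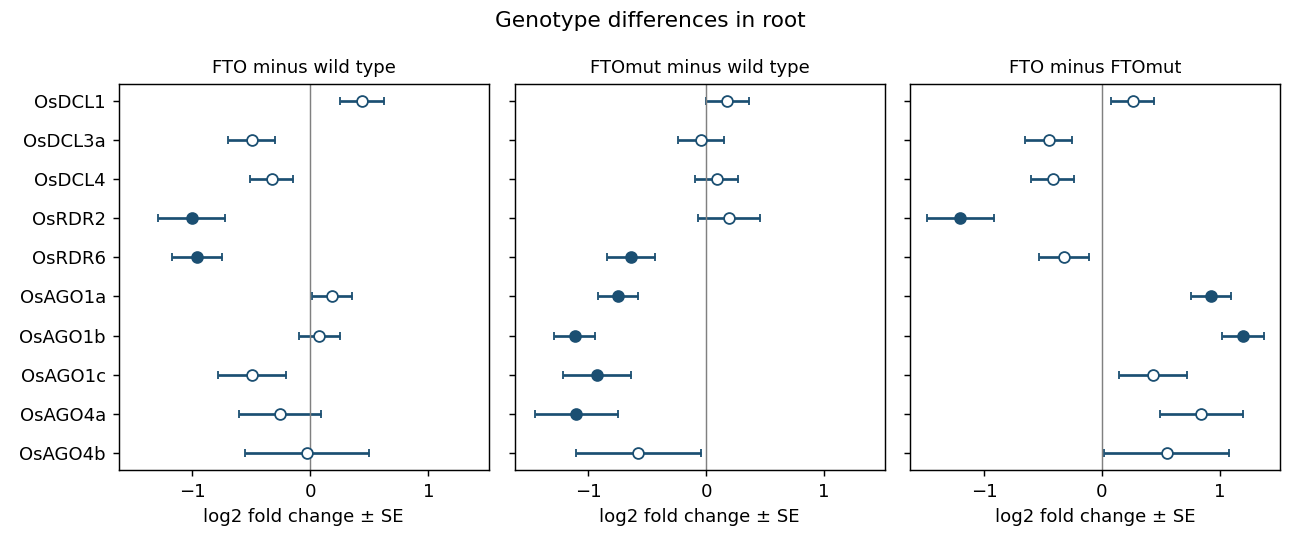
Fitted log2 fold change (x axis) with its SE for each gene in the 3 genotype comparisons of root. Filled points passed an edgeR adjusted p of 0.05; OsRDR2 and OsRDR6 are filled on the left for FTO against wild type, and OsAGO1a and OsAGO1b are on opposite sides of 0 in the other 2 comparisons.

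In shoot no gene of the 10 passed the test in any genotype comparison. For OsRDR2 the wild-type shoot libraries had 1.17 and 1.03 RPKM, the FTO libraries 0.756 and 0.565 and the FTOmut libraries 1.08 and 1.01, so that FTO was again below the others. Its log2 fold change of FTO against wild type was -0.73 ± 0.35 (SE, edgeR adjusted p = 0.928). OsRDR6 lay between 1.00 and 1.20 in all 6 shoot libraries, with a log2 fold change of 0.08 ± 0.318 in FTO. Wild type had 13.0 and 9.03 for OsAGO1a, where FTO had 12.2 and 12.5 and FTOmut 10.8 and 8.08. For OsAGO1b, wild type had 12.9 and 12.4, FTO 14.5 and 14.2 and FTOmut 12.0 and 6.18. Wild type overlapped with both other genotypes for OsAGO1a, and for OsAGO1b both FTOmut libraries lay below both wild-type ones. The value of FTOmut against wild type was -0.47 ± 0.391 for OsAGO1b (adjusted p = 0.84).

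The background in shoot was also without calls: edgeR called 0% of 24463 genes in each of the 3 comparisons, and an unadjusted p under 0.05 was reached by 835 genes (3.41%) for FTO against wild type, by 2179 (8.91%) for FTOmut against wild type and by 4139 (16.9%) when FTO was set against FTOmut. Of the 10 genes, 0, 0 and 1 had such an unadjusted p, the 1 being OsDCL4 at -0.66 ± 0.274 for FTO against FTOmut (adjusted p = 0.295). DESeq2 called 41, 532 and 1388 genes, with 0 of the 10 among them in each. OsDCL3a, the Dicer-like gene for small RNAs of the DNA methylation pathway, had -0.89 ± 0.38 for FTO against FTOmut (adjusted p = 0.301) and 0.79 ± 0.375 for FTOmut against wild type (adjusted p = 0.643). Leaving out a wild-type library brought single calls. OsAGO4b was at -1.22 in FTO without wild-type replicate 1 (edgeR adjusted p = 0.00954), where 11% of all genes were called. OsAGO4a was at -1.06 in FTOmut without wild-type replicate 2 (adjusted p = 0.016), where 12.3% were called. Each is 1 of the 10 genes, near the share of all genes.

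**Figure D3:**
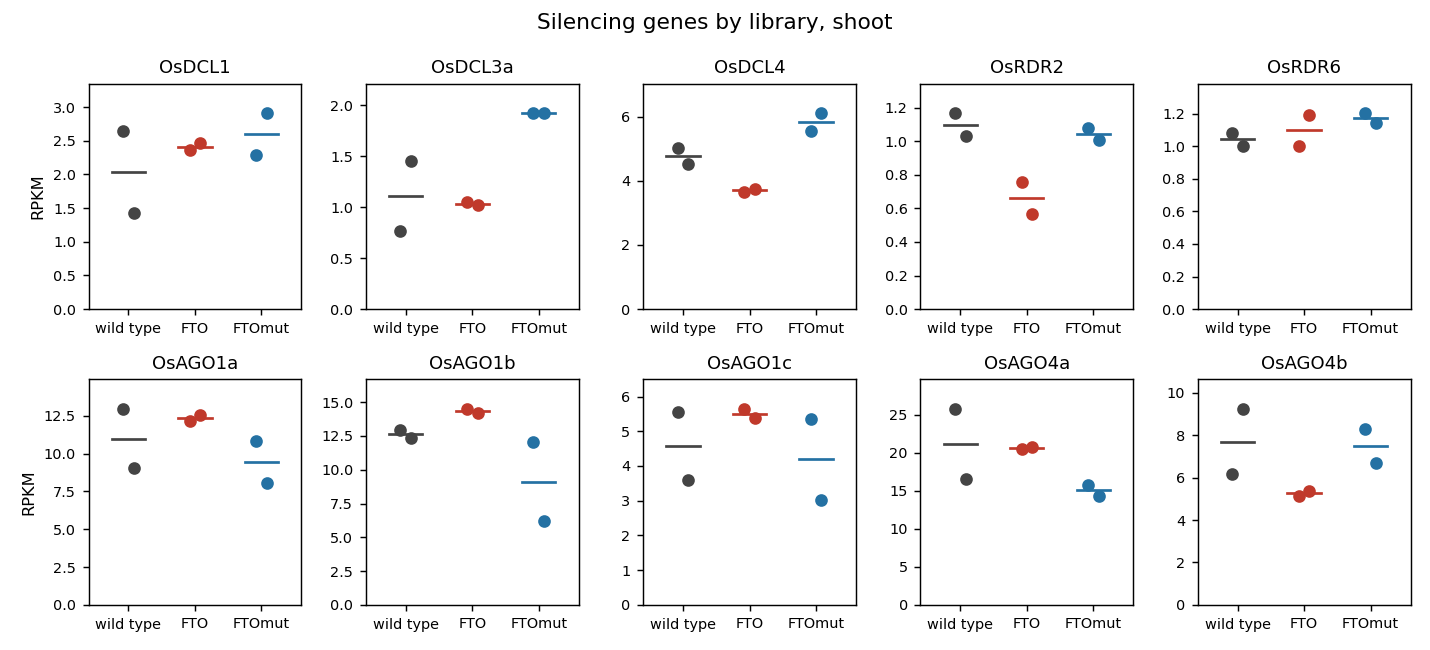
Level of each of the 10 genes in shoot, in RPKM scaled within the tissue (y axis from 0, a scale of its own per gene), by genotype. Points are the 2 libraries of a genotype and bars their mean; the wild-type and FTOmut libraries are often spread more widely than those of FTO, and no difference passed the test.

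The difference between tissues in the genotype effects was tested itself over all 12 libraries. For FTO against wild type, 0 of 10 genes passed, where 3.31% of 38524 genes did. OsRDR6 had the smallest p of the 10, with a log2 difference of root effect minus shoot effect of -1.31 ± 0.396 (SE, edgeR adjusted p = 0.0958). It alone of the 10 had an unadjusted p under 0.05, as did 21.8% of all genes. For FTOmut against wild type, 0 of 10 passed, where 0.909% of all genes did, and 0 had an unadjusted p under 0.05, against 13.8% of all genes. For DESeq2 both counts were also 0. A genotype effect on any of these genes was therefore not shown to differ between root and shoot.

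On a common scaling of all 12 libraries, OsAGO4a was called lower in root than in shoot in all 3 genotypes, OsAGO1c in FTO and FTOmut, and OsRDR2 in FTO; the 3 other Argonautes did not pass the test in any genotype. OsAGO4a was at 18.0 and 10.8 RPKM in the root of wild type, where shoot had 39.2 and 26.6. In FTO root it was at 10.8 and 10.6 against 34.8 and 34.7 in shoot, and in FTOmut root at 9.11 and 4.59 against 26.2 and 21.3. Root lay below shoot in every genotype. Its log2 fold changes were -1.19 ± 0.373 (SE) in wild type (edgeR adjusted p = 0.0407), -1.70 ± 0.379 in FTO (adjusted p = 0.00552) and -1.79 ± 0.38 in FTOmut (adjusted p = 0.00563). OsAGO1c fell by 1.54 ± 0.401 in FTO (adjusted p = 0.014) and by 1.30 ± 0.397 in FTOmut (adjusted p = 0.0439), and was at -0.49 ± 0.391 in wild type (adjusted p = 0.464). OsRDR2 fell by 1.18 ± 0.364 in FTO alone among the called values (adjusted p = 0.0339).

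The calls were 1 of 10 in wild type, 3 in FTO and 2 in FTOmut, all lower in root, where 19.9%, 22.2% and 15.1% of all genes were called, 9.39%, 12.7% and 9.34% lower and 10.5%, 9.55% and 5.74% higher. The median log2 fold change of the 10 genes was -0.16, -0.58 and -0.54, against -0.26, 0.65 and -0.07 for all genes tested. These calls changed when single libraries were left out, and with the filter and the scaling. Fits without 1 library also filtered the genes anew, and tested 39080 to 47200 genes in place of 38524. The part of the library and that of the filter cannot be told apart there. The OsAGO4a call in wild type was lost without any 1 of the 8 wild-type and FTO libraries, and that in FTO without any 1 of the 4 FTO libraries (adjusted p = 0.063 to 0.224). The OsAGO4a call in FTOmut was lost without either FTO shoot library, FTOmut shoot replicate 1 or FTOmut root replicate 2 (adjusted p = 0.0736 to 0.192). The OsAGO1c call in FTO was lost without any 1 of the 4 FTO libraries (adjusted p = 0.105 to 0.299), and that in FTOmut without any library other than FTOmut shoot replicate 2 and FTOmut root replicate 1. The OsRDR2 call in FTO held when FTOmut root replicate 2 was left out and was lost without any other library. It was also lost with RLE factors (adjusted p = 0.0666) and with DESeq2 (adjusted p = 0.0702), and in 15 of 18 alternatives in all. With no filter on low counts 0 of the 10 genes were called in each genotype. Without wild-type shoot replicate 1 the OsAGO4a value in wild type was -0.67 (adjusted p = 0.61), and without FTOmut shoot replicate 1 the OsAGO1c value in FTOmut was -0.17 (adjusted p = 0.983). With ERCC scaling the median of all genes moved to -1.80, -0.98 and -1.95, and 9, 10 and 10 of the 10 genes were called lower in root, where 38.2%, 42.0% and 45.2% of all genes were called in either direction. There OsAGO1a in wild type and FTO, OsDCL3a in FTO and FTOmut, OsAGO4b in FTO and OsRDR6 in wild type, which were above 0 with TMM, became called negative values.

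The share of a gene in the sum of those of the 10 genes that belong to its class does not depend on the scaling of libraries, so it was computed from counts per kb in each library. Further genes of these classes, such as OsDCL2a and OsAGO1d, are not in the sums. This comparison was chosen after the values were seen. OsAGO4a made up 64.3% to 80.8% of the sum of OsAGO4a and OsAGO4b in the 6 shoot libraries, with a median of 73.9%, and 48.2% to 61.5% in the 6 root libraries, with a median of 54.7%. The tissues did not overlap. OsAGO1c made up 14.4% to 19.0% of the 3 AGO1 genes in shoot and 7.30% to 14.0% in root, and OsAGO1a 36.2% to 46.7% in shoot and 46.6% to 54.6% in root. For OsAGO1c the tissues were apart, and for OsAGO1a the highest shoot library lay just above the lowest root library. OsDCL1 made up 19.3% to 34.1% of the 3 Dicer-like genes in shoot and 16.2% to 27.1% in root, and OsDCL3a 9.07% to 19.7% in shoot and 18.9% to 28.0% in root.

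Root minus shoot, averaged over the genotypes, was -18.3 percentage points for OsAGO4a, -7.18 for OsAGO1c, 10.2 for OsAGO1a, -8.30 for OsDCL1 and 8.0 for OsDCL3a. In an exact two-sided permutation test that exchanged tissues within each genotype (216 arrangements), each of these 5 had p = 0.00926, the smallest the design allows, and an adjusted p of 0.0148 over the 8 shares tested. OsRDR2, as a share of OsRDR2 and OsRDR6, was at -10.2 (exact permutation p = 0.037, adjusted p = 0.0494), and that call was lost without FTO root replicate 2 (adjusted p = 0.127), FTO shoot replicate 1, FTOmut root replicate 2 or FTOmut shoot replicate 1. OsAGO1b at -3.04 (exact permutation p = 0.148, adjusted p = 0.169) and OsDCL4 at 0.30 (exact permutation p = 0.824, adjusted p = 0.824) did not pass. Without wild-type shoot replicate 1, OsAGO1b was at -4.44 with an adjusted exact permutation p of 0.0423.

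**Figure D4:**
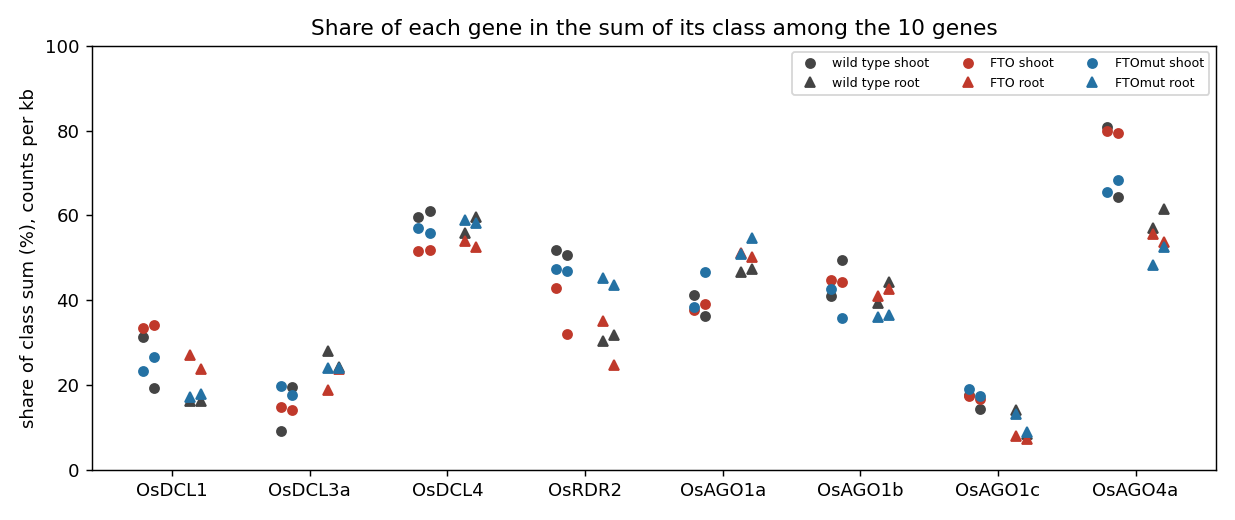
Share of a gene in the summed counts per kb of those of the 10 genes in its class (y axis, percent), per library; circles are shoot and triangles root, coloured by genotype. The classes are the 3 Dicer-like genes, the 2 polymerases, the 3 AGO1 genes and the 2 AGO4 genes; OsAGO4a and OsAGO1c take smaller shares in root and OsDCL3a and OsAGO1a mostly larger ones.

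Among the genotypes, shares within each class also differed in root. OsRDR6 made up 68.2% and 69.6% of the polymerase sum in wild-type root, 65.0% and 75.2% in FTO root, and 54.7% and 56.4% in FTOmut root. OsAGO1b made up 39.4% and 44.2% of the AGO1 sum of wild type, with 41.1% and 42.6% for FTO and 36.0% and 36.5% for FTOmut. In both cases FTOmut was lowest and wild type and FTO overlapped. OsDCL1 made up 23.8% to 27.1% of the Dicer-like sum in FTO root, 16.2% in wild-type root and 17.2% to 17.8% in FTOmut root. OsAGO4a made up 57.0% to 61.5% of the AGO4 sum in wild-type root, 53.8% to 55.5% in FTO root and 48.2% to 52.7% in FTOmut root. With 2 libraries a genotype these shares were not tested.

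In the m6A-seq data, 6 of the 10 genes had a peak in each of the 12 lists of the authors: OsDCL4, OsAGO1a, OsAGO1b, OsAGO1c, OsAGO4a and OsAGO4b. Of 23700 genes tested in both tissues, 34.8% had a peak in every list. The peak lay at the same place throughout, so that for each of these 6 genes all 12 lists held peaks that form 1 chain of overlaps. For OsAGO1a it was chr2:27330174-27330574 on the minus strand, for OsAGO1b chr4:28426545-28426874, for OsAGO1c chr2:35761223-35761563, for OsAGO4a chr1:9631326-9631565, for OsAGO4b chr4:3555280-3555729 and for OsDCL4 chr4:25474123-25474413, all on the minus strand. Positions are those of the lists, counted from 1, and the sources used here do not give the genome build. No annotation of that build was used, so the exon or untranslated region under each peak is not stated.

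The fold of a peak is the authors' ratio of immunoprecipitate over input and is used only to describe a peak within its own list. It ran from 64.1 to 126 for OsAGO1a, above 80.3% to 92.4% of the peaks of its list, and from 45.4 to 212 for OsDCL4, above 70.0% to 98.2%. OsAGO4a ran from 43.3 to 127, OsAGO1b from 25.2 to 69.1 and OsAGO1c from 21.5 to 145. OsAGO4b ran from 12.0 to 52.0, and its peak was split in 2 in the list of FTO root replicate 2. OsAGO4a lay above 67.1% to 95.0% of the peaks of its list. Each of OsAGO1a, OsDCL4 and OsAGO4a thus carried a peak in the upper part of every list. OsAGO1b had 2 further small peaks, at chr4:28433109-28433248 in FTO root replicate 1 with a fold of 3.50 and at chr4:28433378-28435877 in wild-type root replicate 1 with a fold of 4.80.

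The 4 other genes had peaks in some lists or none. OsDCL1 had a peak near chr3:1195684-1196054 in 4 of 6 shoot lists and in 0 of 6 root lists, with folds of 6.00 to 17, and a further small one at chr3:1204370-1204519 in 1 shoot list with a fold of 6.00. OsDCL3a had one at chr1:39595721-39596051 in 4 of 6 shoot lists and 1 of 6 root lists, FTOmut replicate 2, with folds of 23.5 to 126. OsRDR2, on the plus strand, had one at chr4:23290119-23290348 in 3 of 6 shoot lists and 3 of 6 root lists, with folds of 5.33 to 14.0, and a second at chr4:23290368-23290498 in 1 shoot list with a fold of 7.0. OsRDR6 had no peak in any list, as did 36.4% of the genes tested in both tissues. These 4 genes were also the lowest of the 10 in median transcript level over the libraries of each tissue. The part of read depth in whether a peak was listed was not tested.

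**Figure D5:**
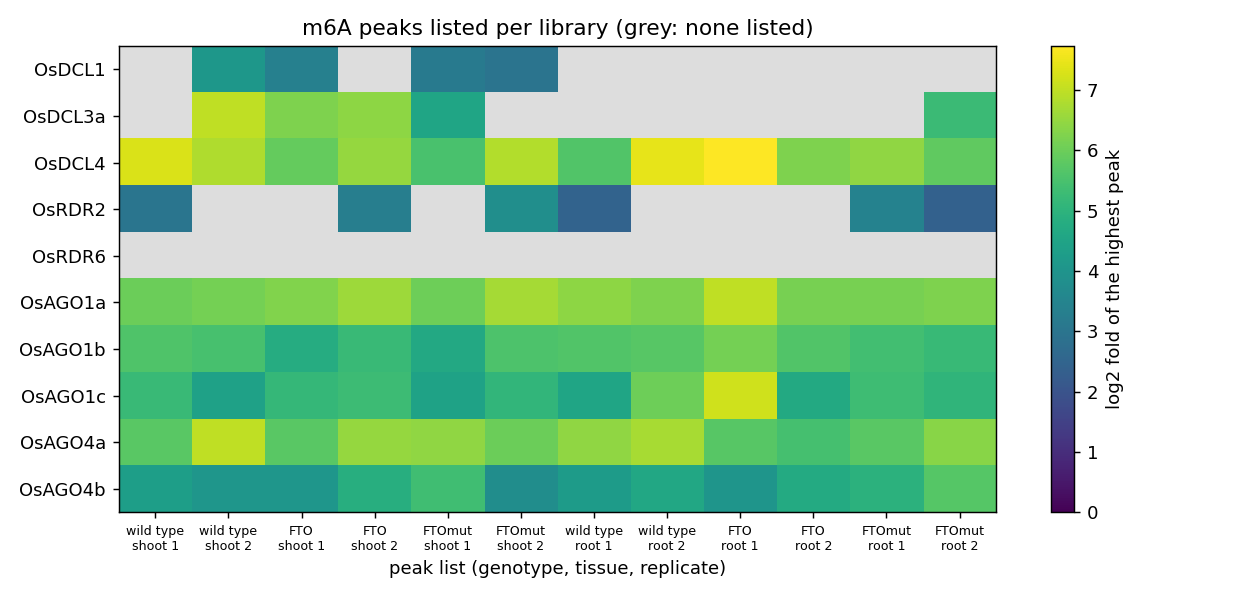
Fold of the highest listed m6A peak of each gene (log2 colour scale) in each of the 12 peak lists; grey marks a list with no peak for the gene. Colours describe a peak within its list; OsAGO1a, OsAGO1b, OsAGO1c, OsAGO4a, OsAGO4b and OsDCL4 are filled throughout, and OsRDR6 is grey throughout.

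A peak was taken as replicated when the lists of both replicates held overlapping peaks of the gene. In shoot this gave 6 of 10 genes in wild type, 7 in FTO and 7 in FTOmut, where 42.1%, 45.2% and 43.9% of the genes tested had one. In root it gave 6, 6 and 7, where 33.1%, 33.7% and 34.1% had one. The 6 genes with a peak in every list made up each count, and the seventh was OsDCL3a in FTO shoot, OsDCL1 in FTOmut shoot and OsRDR2 in FTOmut root. None of the 3 was new to the transgenic genotype, since a wild-type list of the same tissue held each of them in 1 replicate. No gene of the 10 had a replicated peak in wild type that both lists of FTO lacked, in root or in shoot; of all genes tested, 0.619% in root and 0.425% in shoot did. For FTOmut the count was also 0 of 10, against 1.03% and 0.613%. In the reverse direction, no gene of the 10 had a replicated peak in FTO or FTOmut that both wild-type lists lacked, where 1.36% and 1.24% of the genes tested did in shoot and 0.995% and 1.32% in root.

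The rest of the silencing machinery was followed as a list of 27 further Argonaute, Dicer-like, polymerase and cofactor genes. In FTO root 8 of these were called higher and 3 lower than in wild type, beside 16.3% and 18.8% of all genes. In FTOmut root 8 were higher and 4 lower, beside 32.5% and 29.1%. In FTO against FTOmut 3 were higher and 2 lower, beside 14.8% and 5.47%, and in shoot 0 of the 24 tested were called in any comparison. For root against shoot, wild type had 3 higher and 3 lower, FTO 2 and 3, and FTOmut 2 and 1. The shares of all genes called in these were 10.5% higher and 9.39% lower for wild type, 9.55% and 12.7% for FTO, and 5.74% and 9.34% for FTOmut. Values are given here by name only for genes whose names were found in the reference gene table. Those given for transgenic root against wild type are all increases, but other genes of the list fell. LOC_Os12g09580 had means of 21.9 RPKM in wild-type root, 8.01 in FTO root and 5.55 in FTOmut root. For LOC_Os07g06970 the means were 3.27, 0.884 and 2.26. The median of the list was 0.32 in FTO root and 0.12 in FTOmut root, against 0.19 and 0.06 for all genes tested. OsAGO18, an Argonaute of grasses that rice induces on virus infection, was at 5.06 and 4.29 RPKM in wild-type root, 21.4 and 20.6 in FTO root and 15.8 and 12.5 in FTOmut root. Both transgenic genotypes lay above wild type without overlap. Its log2 fold change was 2.17 ± 0.198 (SE) in FTO and 1.598 ± 0.195 in FTOmut against wild type (edgeR adjusted p = 1.33e-06 and 1.57e-05). OsAGO17, a further Argonaute, had 1 and 2 counts in wild-type root, 11 and 9 in FTO root and 18 and 61 in FTOmut root, too few for a fold. OsDCL2a, a further Dicer-like gene that was named after its values were seen, rose by 0.59 ± 0.174 in FTO root (edgeR adjusted p = 0.0184) and by 0.66 ± 0.174 in FTOmut root (adjusted p = 0.00616). Between tissues, OsAGO18 was higher in root by 2.07 ± 0.311 in FTO (edgeR adjusted p = 0.000364) and by 1.20 ± 0.296 in FTOmut (adjusted p = 0.0145). OsAGO1d, a further AGO1 gene, was lower in FTO root than in FTO shoot, at -1.39 ± 0.305 (adjusted p = 0.00492).

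With 23 candidates for each of the 10 genes, the closest profiles over the 12 libraries, by the root mean square difference of centred log2 CPM, were those of OsDCL1 and OsAGO2, at 0.23, and of OsRDR6 and OsDCL4, at 0.31, leaving out 2 close pairs whose partner could not be checked by name. The pairing of OsRDR6 with OsDCL4 was not particular. OsDCL4 was also the closest gene to OsDCL3a (0.43) and OsRDR2 (0.45), and itself lay closer to another gene (0.27). OsAGO1a and OsAGO1b were closest to each other, also at 0.31. All these values are descriptions over libraries that share genotype and tissue.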

How the data were processed

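Per the submitters' processing notes, reads were trimmed with cutadapt 1.15, aligned with HISAT2 2.1.0 and counted with featureCounts of Subread 1.6.4. The authors deposited expected counts per gene, 1 table per tissue, with no normalization, beside the length of each gene row in bp, an other unit that was used for RPKM. Their deposited peak lists, 1 per m6A-seq replicate, give a fold, the ratio of immunoprecipitate over input, and an FDR on a log10 scale. MeTPeak made them per the labels' descriptions; no source used here gives its settings or the build.

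Expected counts were rounded to whole numbers, and the 92 ERCC spike-in rows stayed out of library sizes and tests. RPKM was computed from the deposited counts and lengths, with TMM scaling within a tissue or, between tissues, over all 12 libraries. The repeat tables were not used. For RNA-seq the labels name poly(A) RNA but describe removal of ribosomal RNA in the protocol, which is followed here. Each tissue's 6 libraries (3 genotypes, 2 replicates) were fitted with edgeR 4.0.16 in R 4.3.3: filter by expression, TMM factors, robust quasi-likelihood F test, two-sided, Benjamini-Hochberg adjusted p under 0.05. Tissues and differences of effects were tested over all 12 libraries. DESeq2 1.42.0 was an alternative, and the edgeR script was tested on simulated data. Alternatives are given in the closing section.

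Gene names of the 10 genes come from the rule that chose them; 8 were found in the RefSeq gene table on the chromosome of the identifier, as were 10 of the 27 further silencing genes, and of those 27 a gene is named only where found. For these, the rule takes the 4 largest changes among called genes; it also takes the 4 closest profiles. The members and lists were chosen with earlier results of these data known.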

Additional observations from a re-analysis of the deposited data

How the results depend on the processing

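Each test here rests on 2 libraries a group. Fits that left out a library filtered the genes anew, so they also differed in the genes tested. Counts of called genes kept within 1.5 times of the reported count in 77 of 94 cases, peak lists included. The leaving out of each library in turn was not counted there. Many of the 77 set 0 calls beside 0, in shoot and for the differences of effects, and so show little about stability. All 17 cases that moved were counts of RNA-seq calls, and most settings for root against shoot were among them. The replicated peak counts kept within 1.5 times in all of their cases. These were a fold minimum of 10, a reciprocal overlap of 50%, a peak in either replicate or in 1 replicate alone. A fold minimum of 2 could not change them, since the lowest fold of a list ran from 2.33 to 2.86. Of 1660 values of single genes under an alternative, 178 had the opposite sign, of which 172 were uncalled in both settings and 6 were called in 1, all 6 for root against shoot with ERCC scaling. The minimum of 10, the ERCC scaling without FTOmut replicate 2 and the family shares were added after seeing the data. The cause of these changes was not tested.

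Counts of called genes moved as follows. With ERCC scaling they were 9, 10 and 10 for root against shoot in wild type, FTO and FTOmut. With no filter all 3 were 0, and in fits of 4 libraries they were 0, 6 and 0. For root against shoot in wild type, DESeq2 gave 2, and with RLE factors FTOmut gave 1. In fits of 4 libraries the count was 4 for FTO against wild type in root, 3 for FTOmut against wild type in root and 1 for FTO against FTOmut in shoot. With ERCC scaling and without FTOmut replicate 2 it was 2 for FTOmut against wild type in root.

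Replicate numbers are shared by the genotypes, but the labels do not say that they pair samples, and the correlations of deviations between same-numbered libraries were -0.28 to 0.17. With the replicate number as a block, FTO against FTOmut in root had 5 calls and root against shoot in wild type 0; the 9 other counts stayed within 1.5 times. The block also ended the call of OsRDR2 for root against shoot of FTO (edgeR adjusted p = 0.0604).

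Leaving out 1 library at a time, the counts ran from 0 to 5 for FTO against wild type in root, 2 to 7 for FTOmut against wild type in root and 1 to 6 for FTO against FTOmut in root. For both FTO and FTOmut against wild type in shoot they ran from 0 to 1. For root against shoot they ran from 0 to 1 in wild type, 0 to 3 in FTO and 0 to 3 in FTOmut. The share of OsDCL4 among the 3 Dicer-like genes, root minus shoot, ran from -0.33 to 0.92 percentage points.

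Of all genes, the number called moved by over 1.5 times from the reported one as follows. For FTO against FTOmut in root it went from 6581 to 11297 with ERCC scaling, and to 10673 when FTOmut replicate 2 was also left out. FTO against wild type in root went from 11399 to 18177 in that last case. In shoot, where 0 genes were called in each comparison, DESeq2 called 41, 532 and 1388 and edgeR with no filter 98, 241 and 1024 for FTO against wild type, FTOmut against wild type and the pair of transgenic genotypes. That pair also had 1206 with ERCC scaling and 3786 in a fit of 4 libraries. For root against shoot in wild type, FTO and FTOmut, 7649, 8570 and 5808 became 14718, 16186 and 17422 with ERCC scaling and 4929, 18018 and 3461 in fits of 4 libraries. The difference of FTO effects went from 1274 to 2860 with DESeq2. That of FTOmut effects went from 350 to 1815 with DESeq2, 560 with RLE factors and 603 with no filter. When libraries were left out in turn, the numbers ran from 4825 to 18800 for FTO against wild type in root, 12371 to 33821 for FTOmut against wild type in root and 2954 to 17741 for FTO against FTOmut in root, each highest without FTOmut replicate 1. In shoot they ran from 0 to 3946, 0 to 4305 and 0 to 4754, highest without wild-type replicate 1 in the first and replicate 2 in the others. For root against shoot they ran from 4182 to 9850 in wild type, 4339 to 11177 in FTO and 3721 to 9587 in FTOmut. The difference of FTO effects ran from 239 to 5095 and that of FTOmut effects from 71 to 7286.

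Values of opposite sign (log2) were as follows. With RLE factors, OsAGO1b was -0.033 for FTO against wild type in root. OsDCL4 was 0.057, OsRDR6 0.060 and OsAGO1a 0.052 for root against shoot of FTOmut. OsDCL1 was 0.21, OsDCL4 0.057 and OsAGO1a 0.032 for FTO effect in root minus FTO effect in shoot. OsDCL1 was 0.19 and OsDCL4 0.16 for FTOmut effect in root minus FTOmut effect in shoot. With ERCC scaling, OsDCL3a was 0.015, OsDCL4 0.19, OsAGO4a 0.22 and OsAGO4b 0.44 for FTO against wild type in root. OsDCL3a was 0.064, OsDCL4 0.095 and OsRDR6 0.19 for FTO against FTOmut in root. OsDCL3a was 0.71, OsDCL4 0.55, OsRDR2 0.17, OsAGO4a 0.93 and OsAGO4b 0.29 for FTO against wild type in shoot. OsRDR2 was 0.14, OsAGO1a 0.016, OsAGO1c 0.088 and OsAGO4b 0.086 for FTOmut against wild type in shoot. OsDCL1 was 0.56, OsDCL4 0.022, OsRDR2 0.025, OsRDR6 0.61 and OsAGO4b 0.21 for FTO against FTOmut in shoot. OsDCL3a was -0.69, OsRDR6 -0.94 and OsAGO1a -1.19 for root against shoot of wild type. OsDCL3a was -1.39, OsAGO1a -1.63 and OsAGO4b -1.65 for root against shoot of FTO. OsDCL3a was -1.66 for root against shoot of FTOmut. With DESeq2, OsAGO1b was -0.033 for FTO against wild type in root. OsDCL4 was 0.057, OsRDR6 0.059 and OsAGO1a 0.052 for root against shoot of FTOmut. OsDCL1 was 0.21, OsDCL4 0.056 and OsAGO1a 0.031 for FTO effect in root minus FTO effect in shoot. OsDCL1 was 0.19 and OsDCL4 0.16 for FTOmut effect in root minus FTOmut effect in shoot. With no filter, OsAGO1a was -0.071 and OsAGO1b -0.17 for FTO against wild type in root. OsDCL1 was -0.090, OsDCL4 -0.18 and OsRDR2 -0.068 for FTOmut against wild type in root. OsDCL1 was 0.055 and OsRDR6 0.025 for FTO against FTOmut in shoot. OsDCL4 was 0.15 and OsAGO1b 0.091 for root against shoot of wild type. With the block, OsAGO4b was 0.099 for FTO against wild type in root. OsAGO4b was 0.087 for root against shoot of wild type. OsAGO1a was -0.14 for root against shoot of FTO. In fits of 4 libraries, OsDCL3a was 0.054 for FTOmut against wild type in root. With ERCC scaling and without FTOmut replicate 2, OsDCL3a was 0.015, OsDCL4 0.19, OsAGO4a 0.22 and OsAGO4b 0.44 for FTO against wild type in root. OsDCL3a was 0.033 for FTOmut against wild type in root. OsDCL4 was 0.0021 and OsRDR6 0.045 for FTO against FTOmut in root. OsDCL3a was 0.71, OsDCL4 0.55, OsRDR2 0.17, OsAGO4a 0.93 and OsAGO4b 0.29 for FTO against wild type in shoot. OsAGO1a was 0.0042, OsAGO1c 0.26 and OsAGO4b 0.019 for FTOmut against wild type in shoot. OsDCL1 was 1.01, OsDCL3a 0.034, OsDCL4 0.34, OsRDR2 0.21, OsRDR6 0.80 and OsAGO4b 0.27 for FTO against FTOmut in shoot.

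Where leaving out 1 library changed the sign of a log2 value, its range was as follows. OsAGO1a ran from -0.074 to 0.14, OsAGO1b -0.25 to 0.077 and OsAGO4b -0.68 to 0.31 for FTO against wild type in root. OsDCL1 ran from -0.27 to 0.28, OsDCL3a -0.51 to 0.077, OsDCL4 -0.39 to 0.22 and OsRDR2 -0.40 to 0.42 for FTOmut against wild type in root. OsDCL4 ran from -0.64 to 0.013, OsRDR6 -0.59 to 0.16, OsAGO1c -0.033 to 1.20 and OsAGO4b -0.068 to 1.62 for FTO against FTOmut in root. OsDCL1 ran from -0.39 to 0.35, OsDCL3a -0.89 to 0.17, OsRDR6 -0.27 to 0.24, OsAGO1a -0.33 to 0.22, OsAGO1b -0.19 to 0.24, OsAGO1c -0.28 to 0.34 and OsAGO4a -0.58 to 0.0040 for FTO against wild type in shoot. OsDCL1 ran from -0.32 to 0.42, OsDCL3a -0.027 to 1.04, OsDCL4 -0.094 to 0.21, OsRDR6 -0.32 to 0.19, OsAGO1c -1.04 to 0.21 and OsAGO4b -0.73 to 0.089 for FTOmut against wild type in shoot. OsDCL1 ran from -0.16 to 0.090 and OsRDR6 -0.12 to 0.13 for FTO against FTOmut in shoot. OsDCL1 ran from -0.94 to 0.076, OsDCL4 -0.13 to 0.25, OsAGO1b -0.11 to 0.15, OsAGO1c -0.84 to 0.031 and OsAGO4b -0.77 to 0.21 for root against shoot of wild type. OsAGO4b ran from -0.012 to 0.19 for root against shoot of FTO. OsDCL3a ran from -0.20 to 0.71, OsDCL4 -0.45 to 0.32, OsRDR2 -0.70 to 0.31, OsRDR6 -0.55 to 0.44, OsAGO1a -0.73 to 0.60, OsAGO1b -1.42 to 0.45 and OsAGO4b -1.60 to 0.083 for root against shoot of FTOmut. OsDCL1 ran from -0.64 to 0.37, OsAGO1a -0.60 to 0.054 and OsAGO4b -0.19 to 0.79 for FTO effect in root minus FTO effect in shoot. OsDCL1 ran from -0.74 to 0.27, OsDCL4 -0.54 to 0.22, OsRDR2 -0.18 to 0.82, OsAGO1a -1.13 to 0.19, OsAGO1b -1.46 to 0.40, OsAGO1c -1.50 to 0.22, OsAGO4a -1.30 to 0.031 and OsAGO4b -1.40 to 0.20 for FTOmut effect in root minus FTOmut effect in shoot.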
